A study of Mus musculus with 6 samples.

Results

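The stretch of mouse chromosome 6 that holds Nanog, Dppa3 and Gdf3 contained 39 of the 69689 accessible regions found in R1 embryonic stem cells. A region belonged to it when its midpoint lay inside, or within 100 kb of, the annotated limits of any of the 3 genes on the mm10 assembly, which gives 1 unbroken window of 309 kb (chr6:122505403-122814633). The assay was ACC-seq, which marks open DNA by where the transposase Tn5 can place sequencing adapters. The 6 libraries came from wild-type R1 cells, an established line of mouse embryonic stem cells, grown on inactivated mouse embryonic fibroblast feeders in serum with 1000 U/mL LIF and the 2 inhibitors CHIR-99021 (3 μM) and PD0325901 (1 μM), with feeder cells taken off by replating. For Fix_1,6-Hex (2 libraries), cells were held for 30 s in 10% (w/v) 1,6-hexanediol, which disperses many condensates of proteins and nucleic acids, and then fixed for 10 min in 1% formaldehyde with the hexanediol still present. Fix (2 libraries) had the formaldehyde alone, and Fresh (2 libraries) was tagmented without fixation. Nuclei of both fixed groups were tagmented for 30 min at 55 °C and Fresh nuclei for 30 min at 37 °C, so fixation and temperature cannot be told apart between Fix and Fresh. The design asked how accessibility answers to changes in condensate occupancy.

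The deposited table covers the series as a whole and gives, for each region, its position and the name of 1 of 9 clusters assigned by the authors. It holds no value per library, so no level, no difference between Fix_1,6-Hex, Fix and Fresh, and no replicate error could be computed, and the sequencing depth is unknown. The sources used here do not say what each cluster stands for, so a cluster name carries no direction of change. All values below are therefore descriptions of positions, widths and cluster names, without a test, and the expression of Nanog, Dppa3 and Gdf3 was not measured.

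Nanog encodes a homeodomain transcription factor that sustains pluripotency together with OCT4 and SOX2. Dppa3, also known as Stella, encodes a maternal and germ cell factor that protects DNA methylation in the early embryo, and Gdf3 encodes a ligand of the TGF-β family related to Nodal. The 3 genes lie side by side and are known to be expressed together in naive mouse embryonic stem cells. Several enhancers around Nanog, on both of its sides, are known from work in these cells, and OCT4 and SOX2 are known to bind a joint element in the proximal promoter of Nanog.

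The promoter of Nanog is shown because, of the 3 genes, only Nanog had a promoter sequence available. It lies within the broadest accessible region that covers this gene. The gene runs from 122707489 to 122714633 on the plus strand, with 2 annotated starts 76 bp apart. The 250 bases before the first start (GRCm38.p6, chr6:122707239-122707488, plus strand, from RefSeq) read as follows, with the letters TTTGCAT and ACAATG in capitals.

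Nanog promoter: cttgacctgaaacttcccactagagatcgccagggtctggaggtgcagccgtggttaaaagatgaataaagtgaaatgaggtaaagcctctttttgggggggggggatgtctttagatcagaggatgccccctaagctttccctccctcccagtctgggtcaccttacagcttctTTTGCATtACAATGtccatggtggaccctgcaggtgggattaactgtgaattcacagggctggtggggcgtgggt

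The capitals mark a partial OCT4 octamer and a form of the SOX motif, ACAATG, which differs from the form ACAAAG named below. The 2 are separated by 1 base, and the pair begins 75 bases before the first start and 151 bases before the second. The pair was searched on both strands and was chosen after this sequence had been read, so its rarity elsewhere is no support for it. TTTGCAT stood in 4.12% and ACAATG in 10.7% of the same 250-base windows of 32851 RefSeq promoters. With this spacing, the pair occurred in 2 promoters, which are the windows of the 2 starts of Nanog and overlap each other. The full OCT4 octamer ATGCAAAT (1.60% of promoters), the SOX form ACAAAG (16.5%) and the TATA box TATAAA (12.4%) had no match in this window. Nor did GGGCGG (32.7%), the letters used for a KLF motif. Each was searched on both strands as exact letters. Other forms of these motifs were not searched, apart from the pair above, so the window may hold a KLF motif of other letters. Of the 3 genes, Nanog matched the promoter table.

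Accessible chromatin was dense across the locus. Its 39 regions covered 52814 bp, or 17.1% of the window, and neighbouring regions were a median of 4850.5 bp apart, against 11105 bp over the whole table. Windows of the same length tiled along the genome held a median of 5 regions (quartiles 1 and 13, n = 8566 windows) and 2762 accessible bp. As many regions or more were found in 58 of those windows (0.677%), and as many accessible bases or more in 11 (0.128%). Those windows were not placed around genes, as the locus was. Counted within 100 kb of single protein-coding genes, the standing was less extreme. At least as many regions were found for 2.24% of genes in the case of Nanog, 9.75% for Dppa3 and 16.1% for Gdf3. The outermost regions on either side were a 283 bp region of cluster 9 at 91.8 kb from Gdf3 and a 1928 bp region of cluster 4 at 96.8 kb from Nanog, and the nearest regions outside the limit were a 675 bp region of cluster 5 at 114 kb and a 1156 bp region of cluster 1 at 106 kb.

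Cluster 6 was the most frequent cluster in the locus, and cluster 9 had a lower share there than in the whole table. Cluster 6 held 11 of the 39 regions (28.2%, exact binomial 95% CI 15.0 to 44.9), against 12.7% of all regions and 15.6% of the other regions of chromosome 6. Cluster 9, the most numerous cluster of the table with 26.2% of regions, held 4 (10.3%, CI 2.87 to 24.2), against 23.7% of the other regions of chromosome 6. Cluster 4 also held 4, against 3.47% of all regions. Cluster 1 held 6 (18.7% of all regions), cluster 7 held 6 (18.9%), cluster 5 held 3 (5.06%), cluster 3 held 2 (3.61%), cluster 8 held 2 (9.04%) and cluster 2 held 1 (2.27%). The share in the whole table lay below the exact interval of the locus for cluster 6, above it for cluster 9, and within it for the other 7 clusters. The share in the other regions of chromosome 6 lay within the interval for both cluster 6 and cluster 9. With a limit of 200 kb in place of 100 kb, 11 of 52 regions belonged to cluster 6 (CI 11.1 to 34.7), and with 50 kb, 3 of 30 belonged to cluster 9 (CI 2.11 to 26.5), so that the share in the whole table fell within these intervals too. These intervals treat regions as independent draws, which neighbouring regions are not, and no test was made of the departure.

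**Figure D1:**
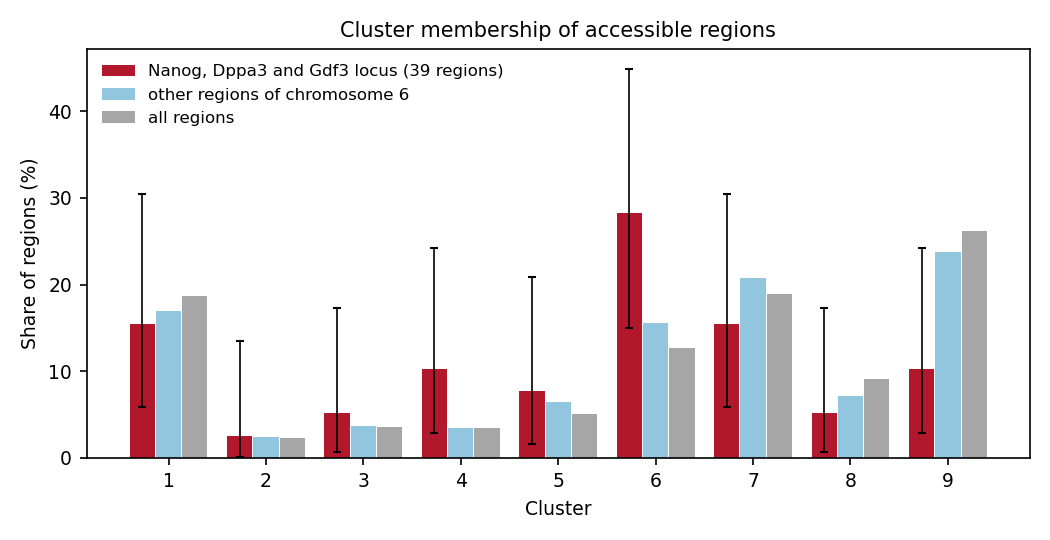
Share of regions in each cluster (y axis, %) for the Nanog, Dppa3 and Gdf3 locus (red, 39 regions, with exact binomial 95% intervals), the other regions of chromosome 6 (blue) and all regions (grey). Cluster 6 stands at 28.2% in the locus against 12.7% over all regions, and cluster 9 at 10.3% against 26.2%.

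**Figure D2:**
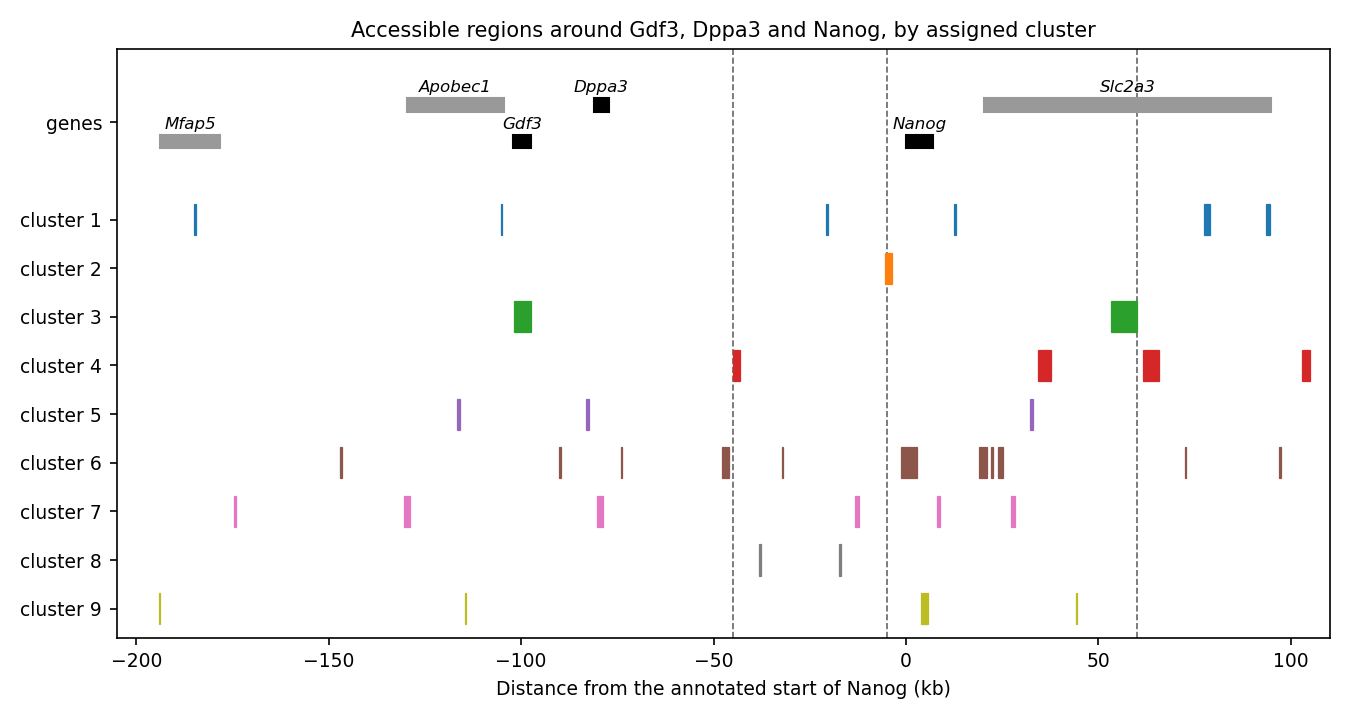
Accessible regions around Gdf3, Dppa3 and Nanog, drawn to scale by distance from the annotated start of Nanog in kb (x axis) and by assigned cluster (rows), with named genes on top (Gdf3, Dppa3 and Nanog in black) and dashed lines at 45 and 5 kb before and 60 kb after that start. Regions of clusters 2, 3 and 4 include the one over Gdf3 and one at or near each dashed line, and cluster 6 holds the region over the start of Nanog.

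The gene Nanog itself was covered by regions of 2 clusters and flanked closely by regions of 2 others. Its start lay in a cluster 6 region of 4158 bp (122706182 to 122710339), which reached 1.31 kb before the first start and 2.85 kb past it. Among the 8821 regions of cluster 6, whose median width was 583 bp, 135 (1.53%) were at least that wide. The downstream part of the gene held a cluster 9 region of 1852 bp (122711452 to 122713303), a width that 229 of 18283 regions of cluster 9 (1.25%) reached, with a cluster median of 292 bp. Both regions were thus among the broadest of their cluster. A cluster 7 region of 806 bp (122715517 to 122716322) followed 1.29 kb beyond the end of Nanog, and a cluster 2 region of 1931 bp (122701964 to 122703894) lay 4.56 kb before its start. From the low to the high coordinate, Nanog therefore lay in a row of clusters 2, 6, 9 and 7, with no cluster repeated. Regions covered 65.8% of the annotated length of Nanog, against a median of 2.80% over 21887 protein-coding genes and 8.21% over the 3509 genes of 3 to 8 kb.

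Gdf3 was covered almost whole by a single region. The cluster 3 region of 4604 bp (122605514 to 122610117) took up 97.6% of the gene (122605403 to 122610087), a share reached by 15 of the 3509 protein-coding genes of 3 to 8 kb (0.427%). Of the 2518 regions of cluster 3, with a median width of 1279 bp, 40 (1.59%) were at least as wide. Its midpoint is more than 1 kb from either limit of Gdf3, so that a count of regions at gene ends by midpoint misses it although it spans the limit at 122610087. On the other side of Gdf3, the nearest region was 247 bp of cluster 1 (122602370 to 122602616), 2.91 kb away and over an annotated start of Apobec1, which encodes an enzyme that edits apolipoprotein B RNA.

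Dppa3 had a narrower region, inside the gene. The cluster 7 region of 1487 bp (122627217 to 122628703) covered 38.6% of Dppa3 (122626424 to 122630271), a share reached by 330 of the 3509 genes of 3 to 8 kb (9.40%). It was wide for cluster 7, whose median was 345 bp, and 767 of 13205 regions of that cluster (5.81%) were at least as wide. A cluster 5 region of 654 bp (122624382 to 122625035) lay 1.72 kb from Dppa3 on its Gdf3 side, and a cluster 6 region of 377 bp (122633371 to 122633747) lay 3.29 kb from it on its Nanog side. No region had its midpoint within 1 kb of either limit of Dppa3 or of Gdf3, and 1 did so for Nanog. The 3 genes thus carried regions of 4 different clusters, namely 6 and 9 over Nanog, 7 over Dppa3 and 3 over Gdf3. Reads from near-identical copies can be misplaced, and the copies Nanog-ps1, Nanog-ps2 and Dppa3-ps in the gene table overlapped 0 regions. The nearest region to any of them was 64.1 kb away, at Nanog-ps2. Reads of a copy that were placed on the gene would also leave the copy without a region, so these counts cannot show whether reads were misplaced.

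Between Dppa3 and Nanog, 77.2 kb without another protein-coding gene held 9 regions of 6 clusters. From Dppa3 onward, the first was the cluster 6 region just named. Next came a pair, a cluster 6 region of 1671 bp (122659731 to 122661401), 46.9 kb before the start of Nanog, and a cluster 4 region of 1622 bp (122662632 to 122664253), 44.0 kb before it. This pair lies on either side of the position of a known distal enhancer of Nanog, given as 45 kb before the gene. Toward Nanog followed a cluster 8 region of 587 bp (122669288 to 122669874) at 37.9 kb and a cluster 6 region of 432 bp (122675179 to 122675610) at 32.1 kb. A cluster 1 region of 432 bp (122686691 to 122687122) lay at 20.6 kb, and a cluster 8 region of 544 bp (122690006 to 122690549) at 17.2 kb. These 4 regions were narrow, each below the median width of its own cluster. A cluster 7 region of 1178 bp (122694139 to 122695316) at 12.8 kb was wider again, and the last of the 9 was the cluster 2 region at 4.56 kb.

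Of the 7 regions of clusters 2, 3 and 4, clusters which elsewhere sit mostly at gene ends, 4 lay near the positions of known Nanog enhancers. The landmarks were taken from background knowledge of mouse embryonic stem cells as 5 kb and 45 kb before, and 60 kb after, the start of Nanog, and a region counted when its midpoint lay within 5 kb of one. They were chosen with earlier results of these data known, so the counts near them are description only. At 5 kb before the start, the cluster 2 region was 0.440 kb from the landmark. At 45 kb before the start, the cluster 4 region was 0.954 kb and the cluster 6 region 1.92 kb from it. At 60 kb after the start, 2 regions inside the annotated limits of Slc2a3 qualified. One was a cluster 3 region of 6725 bp (122760861 to 122767585), 56.7 kb after the start, and the other a cluster 4 region of 4211 bp (122768976 to 122773186), 63.6 kb after it. The cluster 3 region was the widest in the locus, and 11 of 2518 regions of cluster 3 (0.437%) and 0.122% of all regions were at least that wide. Thus 4 of the 5 regions near these landmarks belonged to clusters 2, 3 or 4. The cluster 3 region over Gdf3 and the cluster 4 regions at 36.1 and 104 kb after the start were not near a landmark. Regions are dense here, and 81.1% of the window lay within 5 kb of a midpoint of any cluster, so that nearness to a region says little. For clusters 2, 3 and 4 the same share was 21.0%, a share of bases that cannot be set against the counts of regions above. Of the 3 landmarks, the ones at 5 kb before and 60 kb after the start were covered by a region, and the one at 45 kb before it was not.

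Clusters 2, 3 and 4 together held 7 of the 39 regions (17.9%, exact binomial 95% CI 7.54 to 33.5), against 9.36% of all regions. In the locus, 0 of these 7 regions lay within 1 kb of an end of a protein-coding gene, which allows a share of up to 42.9% (3 counts of 7), against 63.6% of the regions of these clusters in the whole table. When any region that spans a gene limit was counted instead, the share was 1 of 7, the region over Gdf3, against 63.0% of the whole table. Over all clusters, 6 of 39 regions of the locus (15.4%) lay at a gene end by midpoint, against 18.9% of the table. By spanned limits, 5 of 39 (12.8%) did so, against 16.0%. Among regions away from gene ends, clusters 2, 3 and 4 made up 7 of 33 (21.2%) in the locus and 4.20% in the table. This contrast restates the count by midpoint, which keeps all 7 regions here and removes 63.6% of these clusters from the table. It is therefore no separate result. The 7 regions were 1622 to 6725 bp wide, and each was wider than the median of its cluster. The gene table gives gene limits without exons or inner start sites, so that a region inside Slc2a3 could still lie at a start of one of its shorter transcripts. With 7 regions, which lie on 1 chromosome near each other, the interval covers counting error only.

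Beyond Nanog, the 100 kb toward Slc2a3 held 16 regions, against 8 in the 100 kb before Gdf3. Slc2a3 (122727809 to 122802363) encodes the glucose transporter GLUT3, and 12 regions overlapped its annotated limits. After the cluster 7 region at 1.29 kb came a cluster 1 region of 480 bp (122719927 to 122720406), 5.53 kb from Nanog. Then 3 regions of cluster 6 lay in a row at the near end of Slc2a3, a run of 1 cluster that is not matched elsewhere in the locus. They were 2203 bp (122726397 to 122728599), 356 bp (122729691 to 122730046) and 1190 bp (122731470 to 122732659) wide, at 12.9, 15.2 and 17.4 kb from Nanog. Next stood a cluster 7 region of 1040 bp (122734688 to 122735727) at 20.6 kb, a cluster 5 region of 866 bp (122739685 to 122740550) at 25.5 kb and a cluster 4 region of 3290 bp (122741901 to 122745190) at 28.9 kb. A cluster 9 region of 200 bp (122751748 to 122751947) at 37.2 kb was as narrow as any in the table, and was followed by the 2 broad regions of clusters 3 and 4 at 49.6 and 56.4 kb.

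Farther along Slc2a3, no region reached 2 kb. A cluster 6 region of 389 bp (122779886 to 122780274) lay 65.4 kb from Nanog. A cluster 1 region of 1706 bp (122784908 to 122786613) lay at 71.1 kb, and another of 903 bp (122801180 to 122802082) at 87.0 kb, by the far end of Slc2a3. Past that gene stood a cluster 6 region of 448 bp (122804459 to 122804906) at 90.0 kb and the cluster 4 region of 1928 bp (122810502 to 122812429) at 96.8 kb.

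On the far side of Gdf3, the 8 regions were sparser and none belonged to clusters 2, 3, 4 or 8. Mfap5, which encodes a microfibril protein of the extracellular matrix, had a cluster 9 region of 283 bp at one end (122513440 to 122513722, 91.8 kb from Gdf3) and a cluster 1 region of 458 bp inside (122522562 to 122523019, 82.6 kb). A cluster 7 region of 442 bp (122532967 to 122533408) followed at 72.2 kb. Apobec1 had 4 regions, namely the cluster 1 region at its start, a cluster 7 region of 1470 bp at its other end (122577123 to 122578592, 27.5 kb), a cluster 5 region of 631 bp (122590924 to 122591554, 14.2 kb) and a cluster 9 region of 200 bp (122592960 to 122593159, 12.3 kb). Set beside the 65.8% of Nanog, regions covered 29.1% of Slc2a3, 7.45% of Apobec1 and 3.80% of Mfap5. Between Gdf3 and Dppa3, the cluster 5 region near Dppa3 was joined by a cluster 6 region of 453 bp (122617384 to 122617836), 7.52 kb from Gdf3.

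Of 38 adjacent pairs of regions in the locus, 4 (10.5%, exact binomial 95% CI 2.94 to 24.8) were of the same cluster, against 19.4% of 69662 adjacent pairs in the table, a share within that interval. The 11 regions of cluster 6 were spread over the locus, with 1 before Gdf3, 1 between Gdf3 and Dppa3, 3 between Dppa3 and Nanog, 1 over Nanog and 5 after it.

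Widths in the locus ran from 200 to 6725 bp. The median width was 806 bp (95% interval of the median 453 to 1487 bp), against 474 bp over all regions, a value within that interval. In the locus, 5 of 39 regions (12.8%) were 3 kb or wider, against 2.10% of all regions. Those 5 were the regions over Gdf3 and over the start of Nanog and 3 inside Slc2a3. By cluster, all 6 regions of cluster 7 were wider than the median of that cluster, at 442 to 1487 bp. Both regions of cluster 8 were below theirs, at 544 and 587 bp against 865 bp. The 11 regions of cluster 6 split into 4 of 1190 bp or more, which lay at the start of Nanog, at or just inside the near end of Slc2a3 and next to the enhancer at 45 kb, and 7 of 356 to 453 bp, each under the cluster median of 583 bp. In all, 21 of 39 regions (53.8%) were wider than the median of their own cluster. Counted by accessible bases, clusters 3 and 4 held 21.5% and 20.9% of the locus, against 7.31% and 7.47% of the table.

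**Figure D3:**
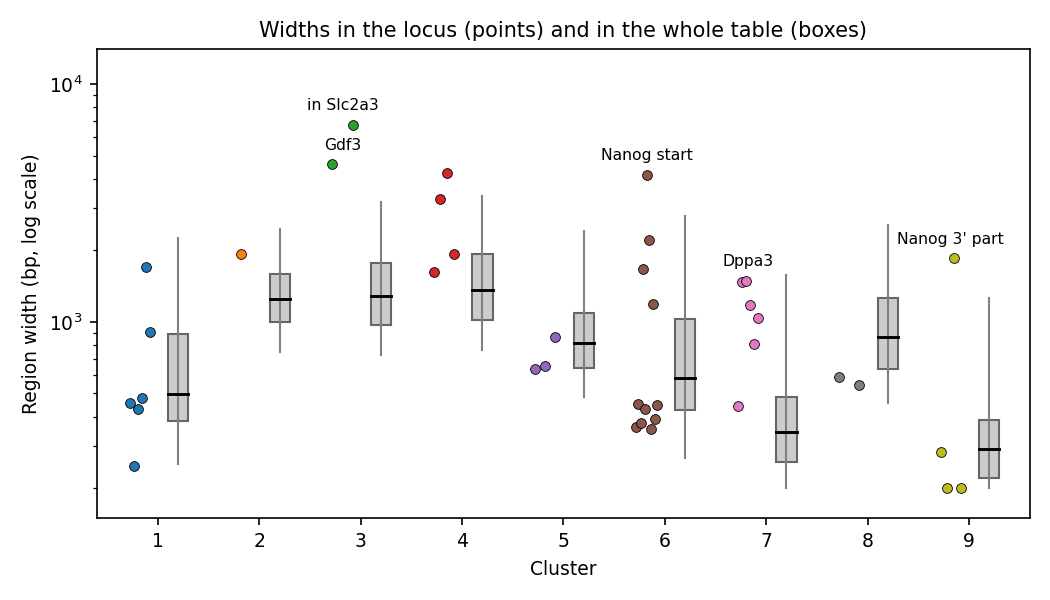
Width of each region of the locus (points, bp on a log axis) by cluster, beside the whole table (box for the quartiles, black line for the median, whiskers for the 5th to 95th percentile). The regions at the start of Nanog (4158 bp), over Gdf3 (4604 bp) and in Slc2a3 (6725 bp) lie above the whiskers of their clusters.

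The surroundings of the 3 genes overlapped, and Nanog had the most regions. Within 100 kb, Nanog had 31 regions, Dppa3 had 25 and Gdf3 had 22, against a median of 11 over 21887 protein-coding genes (quartiles 5 and 18). At least as many were found for 491 genes (2.24%) in the case of Nanog, 2134 (9.75%) for Dppa3 and 3524 (16.1%) for Gdf3. Of the 39 regions, 14 lay within 100 kb of all 3 genes, 11 of 2 genes and 14 of 1 gene, so the counts are not independent of each other. Regions of cluster 6 numbered 10 for Nanog, 8 for Dppa3 and 6 for Gdf3, against a median of 1 over all genes. As many or more were found for 49 (0.224%), 129 (0.589%) and 434 (1.98%) of the 21887 genes, in that order. Regions of cluster 4 numbered 4 for Nanog, a count reached by 257 genes (1.17%), and 1 each for Dppa3 and Gdf3. Those of Nanog lay 28.9, 44.0, 56.4 and 96.8 kb from it, so this count depends on the limit.

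**Figure D4:**
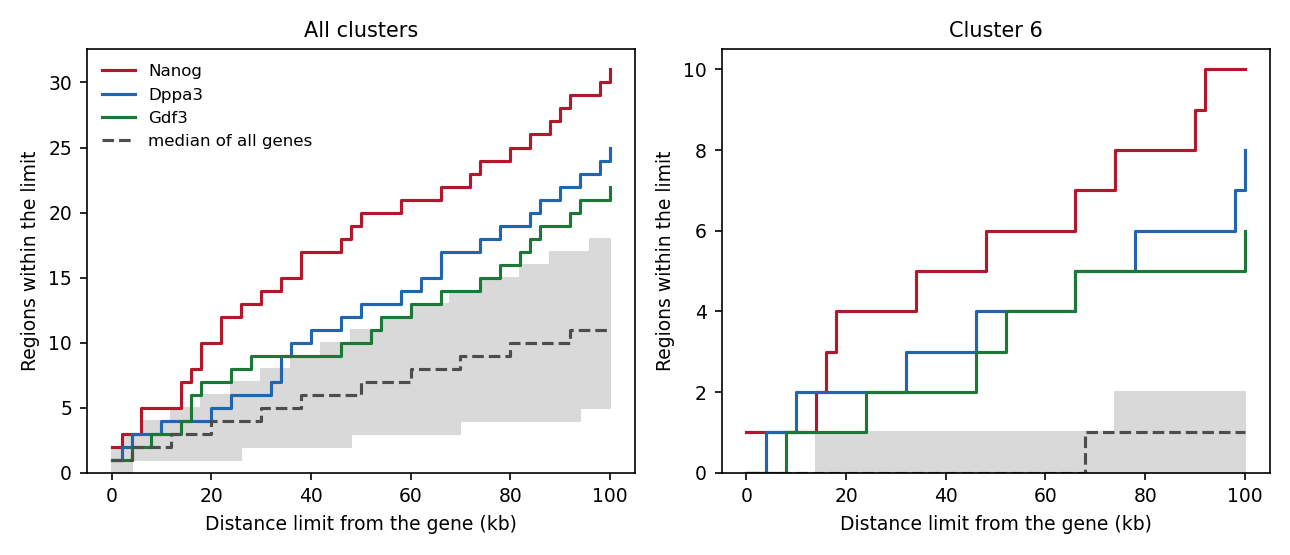
Number of regions (y axis) whose midpoint lies within a given distance of Nanog, Dppa3 or Gdf3 (x axis, kb), for all clusters (left) and for cluster 6 (right), with the median (dashed) and quartiles (grey band) over 21887 protein-coding genes. At 100 kb Nanog has 31 regions and 10 of cluster 6, against medians of 11 and 1.

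Among other genes of the pluripotency network, Nanog stood at the upper end. Its 31 regions within 100 kb compare with 3 to 28 (median 19.5) for 24 such genes, from Pou5f1 and Sox2 to Stat3, of which 0 reached 31. Its 10 regions of cluster 6 compare with a median of 2.5 in the list, in which 1 gene, the Krüppel-like factor Klf5, had as many or more, with 15. For clusters 2, 3 and 4 together, Nanog had 7 regions, against a median of 2 and a highest count of 4, at Klf2, in the list. The 7 include the region over Gdf3, 99.7 kb from Nanog, and the cluster 4 region at 96.8 kb, both near the limit. This count was made at 100 kb only. Pou5f1, which encodes OCT4, had 26 regions with 3 of cluster 6, and Sox2 had 15 with 1. Of the 24 genes, 18 had a region with its midpoint within 1 kb of an end, and for 6 of these 18 it belonged to cluster 6, as at Nanog. Over all protein-coding genes, 60.9% had such a region, and for 6.70% of those it belonged to cluster 6. Dppa2 and Dppa4, 2 of the 6, are neighbours and have the same regions within 100 kb by count.

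Other genes resembled Nanog in their counts of regions by cluster. Likeness was the sum, over the 9 clusters, of the absolute differences in the number of regions within 100 kb, and it had a median of 25 over 21855 genes more than 1 Mb from the locus. The sum reflects the total number of regions as well as their mix. Nanog had 31 regions against a median of 11 over all genes, so the median sum is no baseline for the mix alone. The nearest was Caprin1 on chromosome 2, with a sum of 7 and 10 of 26 regions in cluster 6. Nanog had 4 regions of cluster 4 and Caprin1 had 0. It was followed by Atf7ip on chromosome 6 with 9, and by Auts2 and Ccdc18 on chromosome 5 and Cand2 on chromosome 6 with 10 each. The windows counted differ in length, since they include the gene, at 1306 kb for Auts2, 231 to 308 kb for the other 4 and 207 kb for Nanog. Dppa3 and Gdf3, which share regions with Nanog, had sums of 8 and 9.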

How the data were processed

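ACC-seq libraries of R1 mouse embryonic stem cells were processed by the authors on mm10, per the submitters' processing notes, which list SAMtools 1.6, Picard, Bowtie2 2.3.3.1 and cutadapt 1.18. For the calling of regions and the clustering, no method was given in those sources. The deposited table has 69689 regions with position and cluster name and no signal column, so no depth, precision or fit between the 6 libraries could be given. Starts were counted from 1.

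Regions were placed by midpoint against 21887 nuclear protein-coding genes of RefSeq (GRCm38.p6, the mm10 assembly), a table of gene limits. Regions at a gene end had a midpoint no more than 1 kb from a limit. Shares of the locus carry exact binomial 95% intervals where given, a count of 0 a limit of 3 counts, and the median width an interval from order statistics. Windows of the locus's length were tiled from the first region of each chromosome. The 24 pluripotency genes all matched by symbol. Genes were named by rule: the 3 members, protein-coding genes of the window (the result at 1 position is not reported here), and the 5 genes nearest to Nanog in cluster counts, 1 per 500 kb. Klf5, Klf2, Pou5f1, Sox2, Dppa2 and Dppa4 were named from the list after their values were seen. Members, lists and landmarks were chosen with earlier results of these data known. The motif pair, the length range of 3 to 8 kb and the count by spanned limits were added after seeing the data. Functions were tested on simulated regions. The work used matplotlib 3.10.9, SciPy 1.17.1, pandas 2.3.3, numpy 2.4.6 and Python 3.11.15.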

Additional observations from a re-analysis of the deposited data

How the results depend on the processing

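No paired analysis was possible because the table has no value per library; for the same reason no fit was made with a replicate left out or with another normalisation. The number of regions in the locus was 30 with a limit of 50 kb, 52 with 200 kb and 39 with any overlap with the window. The share of cluster 6 ranged from 21.2% (200 kb, exact 95% CI 11.1 to 34.7, which holds the 12.7% of the table) to 30.0% (50 kb), and that of cluster 9 was 10.0% at 50 kb (CI 2.11 to 26.5, which holds the 26.2% of the table). Weighted by width, cluster 3 held 21.5% in place of 5.13%, since its 2 regions are broad. Of 66 alternative values for 19 results, 53 stayed within the interval or within 1.5 times the value reported, and 13 did not. Counts at gene ends depended most on the definition. Nanog had 1 region by midpoint within 1 kb, 0 within 500 bp, 3 within 2.5 kb and 2 by overlap with the gene. Dppa3 had 0, 0, 2 and 1 in the same order, and Gdf3 had 0, 0, 1 and 1. Within 50 kb, Nanog had 20 regions, Dppa3 had 13 and Gdf3 had 10, and the median over genes was 7. Of the regions of clusters 2, 3 and 4, 1 spanned a gene limit and 0 lay at a gene end by midpoint, an alternative added after seeing the data. With all annotated genes, the median within 100 kb was 8. Depth per library is unknown, so a stretch without a region may be closed or under the limit of detection.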
